A study of Mus musculus with 13 samples.

Results

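Smooth muscle and the mural cells of blood vessels are read here through 10 genes, taken by name from the 23418 genes of the count table. The 7 contractile genes were Acta2, Actg2, Tagln, Cnn1, Myh11, Myl9 and Lmod1. The 3 mural cell markers were Rgs5, Cspg4 and Higd1b. All 10 genes were among the 15412 genes that passed the filter on low counts. Actg2, Lmod1 and Higd1b reached the filter level of 0.262 CPM (the usual count unit relative to library size, here with library sizes scaled by edgeR's trimmed mean of M-values) in none of the muscle libraries, and Higd1b reached it in no embryonic fibroblast library, so these genes entered through the groups in which they were higher.

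The study sequenced total RNA from mouse cells in 3 groups, with 13 libraries in all. In this field FAP stands for fibro/adipogenic progenitor, a mesenchymal cell that lies between the fibres of skeletal muscle, and MEF for mouse embryonic fibroblast. The groups were FAPs of skeletal muscle (4 libraries, numbered 2 to 5), cells labelled FAP from lung (5 libraries, 1 to 5) and MEFs (4 libraries, 1 to 4). The labels name only tissue and cell type, with no allele or agent, and strain, age, sex, sorting gate and the passage of the MEFs are not stated in the sources at hand. The labels do not say whether the libraries of a group came from separate animals or cultures, so each p-value reflects only how these libraries vary, which may be technical variation.

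Contraction in smooth muscle is driven by a myosin whose heavy chain is Myh11 and whose regulatory light chain is Myl9, pulling on filaments of the smooth muscle actins Acta2 and Actg2. Calponin (Cnn1) and transgelin (Tagln) bind actin, and leiomodin (Lmod1) starts new actin filaments. Serum response factor, which binds the CArG box in DNA, and its partners myocardin and the myocardin-related factors are known to drive this gene set, and activated fibroblasts and myofibroblasts also switch on Acta2 and Tagln. Pericytes are the mural cells of capillaries and are recognised by Rgs5, a regulator of G-protein signalling, by Cspg4, the NG2 proteoglycan, and by Higd1b, a small protein of the hypoxia-inducible domain family.

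Total counts ran from 41327292 to 44699463 in the muscle libraries, from 28636183 to 35464622 in the lung libraries and from 33756915 to 41466585 in the MEF libraries. The sum of 10 fibroblast and FAP markers was 58231 to 72582 CPM in muscle, 28750 to 50341 CPM in lung and 5055 to 5996 CPM in MEF. Pdgfra, a receptor that marks FAPs, averaged 1390 CPM in muscle, 800.2 CPM in lung and 29.4 CPM in MEF. The lung libraries were the least alike, and 2 of them stood apart. The library lung FAP 2 had 773 CPM of 10 endothelial markers against 43.8 to 241 CPM in the other 4, and the lowest fibroblast sum. The library lung FAP 3 had 8741 CPM of 10 lung epithelial markers against 33.4 to 123 CPM.

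On the GRCm38 (mm10) assembly, GENCODE M21 places Acta2 on chr19:34241090-34255590 (minus strand), Actg2 on chr6:83512905-83536265 (minus), Tagln on chr9:45929619-45936058 (minus) and Cnn1 on chr9:22099216-22109630 (plus). Myh11 lies on chr16:14194535-14291372 (minus), Myl9 on chr2:156775420-156781658 (plus) and Lmod1 on chr1:135324807-135368065 (plus). The mural markers lie on chr1:169655501-169695813 (Rgs5, plus), chr9:56865033-56899870 (Cspg4, plus) and chr11:102835849-102838040 (Higd1b, plus). All are protein-coding genes, and counts are summed over their exons.

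The CArG box ties the contractile genes to serum response factor, so the windows around the transcription start were searched for it. RefSeq windows on GRCm38.p6, from 250 bases before to 50 bases after the start, were at hand for 6 of the 10 genes (Acta2, Cnn1, Myl9, Lmod1, Rgs5 and Cspg4). The search took the CArG box with up to 1 G or C among its 6 inner positions, on both strands, and its matches overlap A/T-rich motifs such as the TATA box. Acta2 and Myl9 held 2 boxes each, and the windows of Cnn1, Lmod1, Rgs5 and Cspg4 held none. Of all 32851 windows, 9.98% held at least 1 such box and 0.822% held at least 2. The stretches below show both boxes of Acta2 and of Myl9, and for contrast the bases just before the start of the mural marker Rgs5, 5′ to 3′, with the boxes in capitals.
Acta2, first box, chr19:34255438-34255467 (minus): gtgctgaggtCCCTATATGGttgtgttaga
Acta2, second box, chr19:34255388-34255417 (minus): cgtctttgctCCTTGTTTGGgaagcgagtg
Myl9, both boxes, chr2:156775293-156775384 (plus): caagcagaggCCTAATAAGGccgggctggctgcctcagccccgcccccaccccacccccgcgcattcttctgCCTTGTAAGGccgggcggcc
Rgs5, no box, chr1:169655411-169655500 (plus): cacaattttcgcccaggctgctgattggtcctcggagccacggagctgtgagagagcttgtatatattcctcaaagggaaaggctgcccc
The boxes of Acta2 began 84 and 34 bases before the RefSeq start and those of Myl9 161 and 99 bases before it. GENCODE M21 starts the first exon of Acta2 further upstream, so that both Acta2 boxes fall inside it. A match describes the letters only, and a window without one says nothing about sites elsewhere.

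Acta2, the main actin of vascular smooth muscle, was low in muscle FAPs, intermediate in lung FAPs and high in MEFs. It stood at 5.10, 6.48, 5.41 and 4.31 CPM in muscle libraries 2 to 5, at 332, 895, 268, 154 and 582 CPM in lung libraries 1 to 5, and at 2235, 2553, 3354 and 1856 CPM in MEF libraries 1 to 4. No library of 1 group overlapped another group, and the lung libraries spanned 5.81-fold against 1.81-fold in MEF. By edgeR's quasi-likelihood test with Benjamini-Hochberg adjustment over all genes tested, Acta2 was lower in muscle than in lung by a log2 fold change of -6.39 (SE 0.46, adjusted p = 5.2e-07). Against MEF it was lower in muscle by -8.87 (SE 0.22, adjusted p = 9.4e-09) and in lung by -2.49 (SE 0.48, adjusted p = 7.2e-05). In these bulk libraries fewer cells of a type and less RNA per cell cannot be told apart.

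Actg2, the actin of visceral smooth muscle, followed the same order with a deeper floor. Muscle libraries 2 to 5 held 1 to 5 reads each (0.117, 0.0296, 0.115 and 0.150 CPM), lung libraries 1 to 5 stood at 22.1, 70.2, 19.3, 8.87 and 45.9 CPM, and MEF libraries 1 to 4 at 102, 113, 165 and 66.6 CPM. Muscle lay far below both other groups, while lung FAP 2 reached above the lowest MEF library. The log2 fold change was -8.30 in muscle against lung (SE 0.59, edgeR adjusted p = 7.8e-06), -10.04 in muscle against MEF (SE 0.39, adjusted p = 3.9e-07) and -1.75 in lung against MEF (SE 0.58, adjusted p = 0.0054). The test against a 2-fold change ended the call of the lung and MEF difference (adjusted p = 0.0588).

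**Figure D1:**
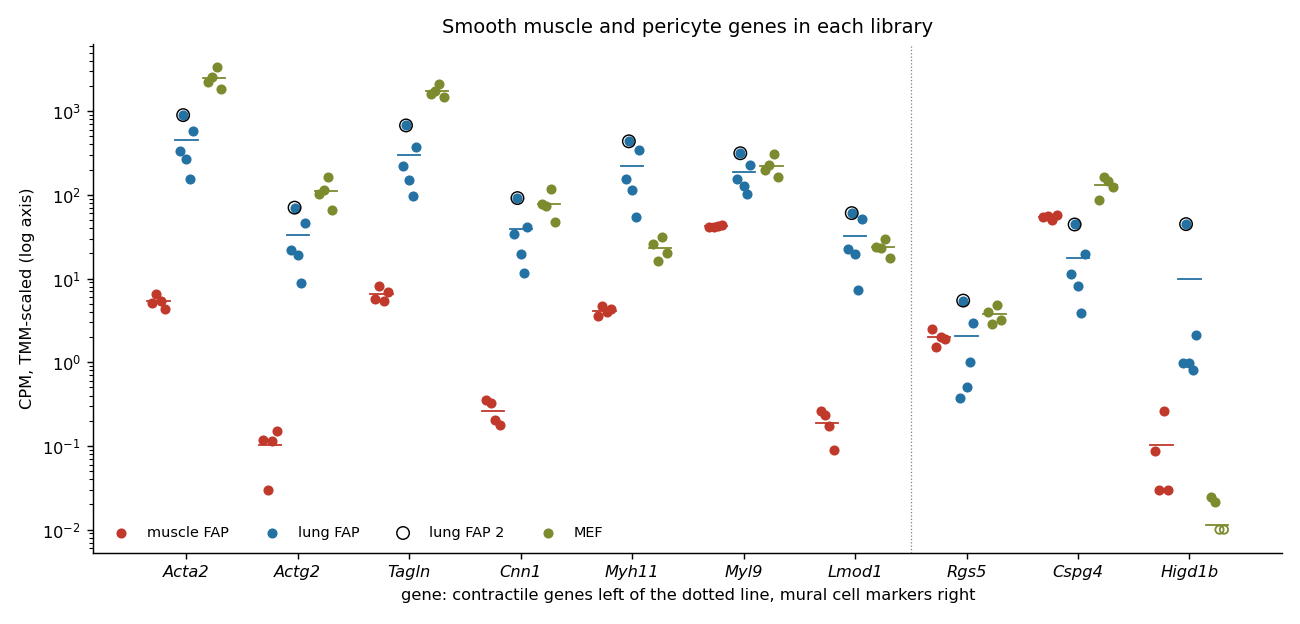
CPM (log axis) of the 7 contractile genes and 3 mural cell markers in each library, with muscle FAP in red, lung FAP in blue, MEF in green, a bar for each group mean, a ring around lung FAP 2 and open points for libraries with no read, drawn at 0.01. Muscle libraries lie lowest for every contractile gene, and lung FAP 2 is the highest lung library for all 10 genes.

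Tagln, the actin-binding protein transgelin, had the same order of groups as Acta2. Muscle libraries 2 to 5 had 5.68, 8.04, 5.38 and 6.86 CPM, lung libraries 1 to 5 had 221, 674, 151, 96.2 and 368 CPM, and MEF libraries 1 to 4 had 1586, 1717, 2097 and 1464 CPM. The 3 groups did not overlap. Its log2 fold changes were -5.54 in muscle against lung (SE 0.51, edgeR adjusted p = 3.5e-06), -8.05 in muscle against MEF (SE 0.17, adjusted p = 5.7e-08) and -2.51 in lung against MEF (SE 0.50, adjusted p = 1.6e-04). Of the exon bases of Tagln, 62.4% overlap the antisense gene Gm48529 and 5.43% overlap Pcsk7 on the other strand. Whether reads were counted by strand is not given in the sources used here, so a share of the Tagln count may belong to the other strand.

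Cnn1, the calponin of smooth muscle, and Lmod1, its leiomodin, were nearly silent in muscle FAPs. Cnn1 had 0.349, 0.325, 0.202 and 0.180 CPM in muscle libraries 2 to 5, 33.6, 91.4, 19.6, 11.5 and 41.7 CPM in lung libraries 1 to 5, and 76.7, 73.3, 116 and 47.2 CPM in MEF libraries 1 to 4. Lmod1 had 0.262, 0.237, 0.173 and 0.0898 CPM in muscle, 22.7, 60.5, 19.8, 7.31 and 51.6 CPM in lung, and 23.7, 23.1, 29.8 and 17.8 CPM in MEF, in the same order. For both genes every muscle library was below every other library, while lung and MEF libraries overlapped. Cnn1 was lower in muscle by -7.21 against lung (SE 0.54, edgeR adjusted p = 8.7e-06) and by -8.19 against MEF (SE 0.33, adjusted p = 8.3e-07) on the log2 scale. Lmod1 was lower by -7.38 (SE 0.60, adjusted p = 3.2e-06) and -6.93 (SE 0.30, adjusted p = 1.3e-06). Between lung and MEF, Cnn1 had a log2 fold change of -0.98 (SE 0.57, adjusted p = 0.0774) and Lmod1 of 0.45 (SE 0.57, adjusted p = 0.379), and neither passed the test. Without lung FAP 2 the Cnn1 value became -1.59 with adjusted p = 0.0010, and its value in muscle against lung became -6.62.

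Myh11, the smooth muscle myosin heavy chain, did not follow the actins: its highest group was lung. Muscle libraries 2 to 5 had 3.52, 4.67, 4.0 and 4.28 CPM, lung libraries 1 to 5 had 153, 436, 115, 55.0 and 348 CPM, and MEF libraries 1 to 4 had 26.1, 16.4, 30.9 and 20 CPM. The groups did not overlap, and the lowest lung library was 1.78 times the highest MEF library. Myh11 was higher in lung than in MEF by a log2 fold change of 3.25 (SE 0.58, edgeR adjusted p = 1.3e-04). Muscle was lower than lung by -5.75 (SE 0.55, adjusted p = 1.2e-05) and lower than MEF by -2.50 (SE 0.22, adjusted p = 0.0014). Of its 50-base windows, 0.34% also occur in the nonmuscle myosins Myh9 or Myh10. How reads that match more than 1 gene were counted is not given in the sources used here, and their part in the Myh11 values was not tested.

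Myl9, the regulatory light chain, was the contractile gene with the smallest differences. Muscle libraries 2 to 5 were almost level at 41.3, 41.2, 42.0 and 44.2 CPM, lung libraries 1 to 5 had 156, 314, 126, 103 and 228 CPM, and MEF libraries 1 to 4 had 200, 224, 306 and 165 CPM. Muscle did not overlap the other groups, and lung and MEF overlapped. Myl9 was lower in muscle by -2.14 against lung (SE 0.29, edgeR adjusted p = 4.8e-05) and by -2.41 against MEF (SE 0.19, adjusted p = 6.8e-06). The value of lung against MEF was -0.27 (SE 0.34, adjusted p = 0.381), and without lung FAP 2 it was -0.58 with adjusted p = 0.0254.

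The 3 mural markers did not share 1 pattern. Cspg4 (NG2) had 54.4, 55.2, 49.8 and 58.0 CPM in muscle libraries 2 to 5, 11.3, 44.2, 8.19, 3.86 and 19.9 CPM in lung libraries 1 to 5, and 86.0, 164, 147 and 124 CPM in MEF libraries 1 to 4. It was the only one of the 10 genes called higher in muscle than in lung, with no overlap, although lung FAP 2 came within 1.13-fold of the lowest muscle library. The log2 fold change was 1.63 (SE 0.59, edgeR adjusted p = 0.0222) with all libraries and 2.34 without lung FAP 2 (adjusted p = 1.8e-04). The call was lost with library size as the only scaling (adjusted p = 0.0853), against a 2-fold change (0.263), with both groups fitted alone (0.0605) and with the replicate numbers as a block (0.0576). Cspg4 was lower in lung than in MEF by -2.90 (SE 0.62, adjusted p = 3.6e-04), or -3.62 without lung FAP 2. Muscle against MEF gave -1.26 (SE 0.21, adjusted p = 0.0555), which missed the threshold although the libraries did not overlap, and the fit of both groups alone called it (adjusted p = 1.8e-05).

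Rgs5, the marker most used for pericytes, was low in every group. Muscle libraries 2 to 5 had 2.48, 1.51, 2.02 and 1.92 CPM, lung libraries 1 to 5 had 0.372, 5.45, 0.507, 0.997 and 2.95 CPM, and MEF libraries 1 to 4 had 4.02, 2.89, 4.79 and 3.22 CPM. The lung libraries spanned 14.6-fold and covered the levels of both other groups, while every muscle library was below every MEF library. None of its 3 comparisons passed the edgeR test. The log2 fold changes were -0.06 in muscle against lung (SE 0.72, adjusted p = 0.952), -0.91 in muscle against MEF (SE 0.22, adjusted p = 0.208) and -0.86 in lung against MEF (SE 0.72, adjusted p = 0.206). Without lung FAP 2 the first turned to 0.73 (adjusted p = 0.251) and the last became -1.66 and passed (adjusted p = 0.0078). The fit of muscle and MEF alone called the second (adjusted p = 0.0037).

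Higd1b was detected mainly in 1 library. Muscle libraries 2 to 5 had 0.0874, 0.0296, 0.259 and 0.0299 CPM, lung libraries 1 to 5 had 0.974, 44.7, 0.983, 0.798 and 2.11 CPM, and MEF libraries 1 to 4 had 0.0242, 0.0212, 0 and 0 CPM. The library lung FAP 2 held 1565 of the 1726 lung reads, and the MEF libraries held 2 reads in all. Lung was above both other groups without overlap. The log2 fold change of muscle against lung was -6.55 (SE 1.16, edgeR adjusted p = 0.0053), -3.52 without lung FAP 2 (adjusted p = 0.0011) and -7.57 without muscle FAP 4. Over pooled reads Higd1b was 937-fold higher in lung than in MEF (95% counting interval 259 to 7746), and edgeR called it (adjusted p = 9.6e-04). Counting intervals cover counting error only and leave out the variation between libraries, which was large here because most lung reads came from lung FAP 2. Without lung FAP 2 the fitted log2 fold change of lung against MEF moved from 9.43 to 6.37 (adjusted p = 1.5e-05). Muscle exceeded MEF by a pooled ratio of 9.31 (95% counting interval 2.14 to 84.4), which did not pass the edgeR test (adjusted p = 0.346). The library muscle FAP 4 held 9 of the 14 muscle reads, and without it the fitted log2 fold change fell from 2.87 to 1.85.

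Counted over the 10 genes, muscle against lung gave 1 call higher and 8 lower, where 23.2% and 25.0% of all genes tested were called higher and lower (48.2% in either direction). All 7 contractile genes were lower in muscle, with a median log2 fold change of -6.39 against -0.04 over all genes tested. Muscle against MEF gave 7 calls, all lower and all contractile (by edgeR none was higher, also at an unadjusted p under 0.05, by limma-voom, and by DESeq2 among the 9 genes to which it gave an adjusted p, all but Higd1b), where 37.3% of all genes were called lower and 36.1% higher (73.5% in either direction). The contractile median there was -8.05 against -0.04. Lung against MEF gave 2 calls higher (Myh11 and Higd1b) and 4 lower (Acta2, Actg2, Tagln and Cspg4), where 37.8% and 36.6% of all genes were called higher and lower, so that the 6 calls are a smaller share than the 74.4% of all genes called in either direction. Without lung FAP 2 the lung against MEF calls rose to 9, with Cnn1, Myl9 and Rgs5 added as lower. The libraries did not overlap for 8 genes lower and 1 higher in muscle against lung (19.0% and 19.0% of all genes, 37.9% in either direction), and for 9 lower and 1 higher in muscle against MEF (38.2% and 35.7%, 73.9% in either direction). In lung against MEF they did not overlap for 3 genes lower and 2 higher (33.1% and 32.2%, 65.3% in either direction). The 3 comparisons share libraries, so they are not independent of each other.

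**Figure D2:**
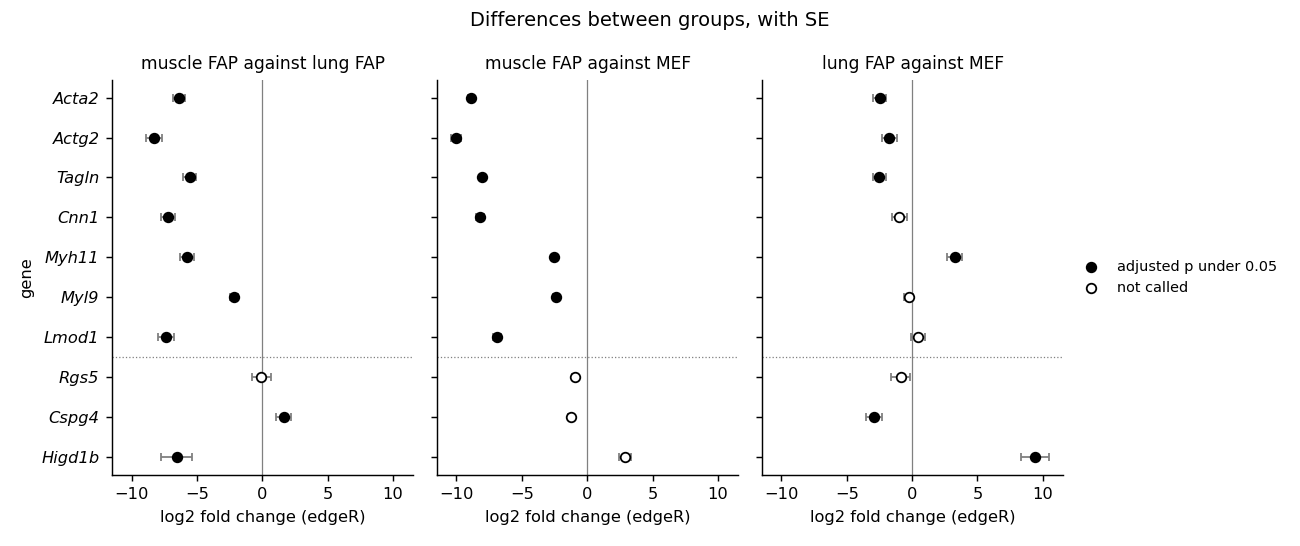
Log2 fold change by edgeR for each of the 10 genes in the 3 comparisons, first group over second. Bars show the SE from the log2 CPM of the libraries (prior count 2), which is not the error of the edgeR fit. Points are filled where the adjusted p was under 0.05, and contractile genes lie above the dotted line. All 7 contractile genes lie left of 0 in both comparisons of muscle, and in lung against MEF Myh11 and Higd1b lie to the right while Acta2, Actg2, Tagln and Cspg4 lie to the left.

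Markers of several other cell types, but not of all, were also lower in muscle than in lung. Over all genes tested, 25.0% were called lower and 23.2% higher in this comparison. All 6 mesothelial markers were lower (median log2 fold change -6.58), with sums of 0.720 to 27.8 CPM in muscle, 426 to 1043 CPM in lung and 43.9 to 57.5 CPM in MEF. Of 10 blood cell markers 9 were lower (median -6.39), with sums of 5.21 to 8.16 CPM in muscle, 172 to 581 CPM in MEF and 46.8 to 79.2 CPM in lung, apart from 749.7 CPM in lung FAP 3. Of 8 cardiac muscle markers tested 6 were lower (median -3.30), or 4 without lung FAP 2, with sums of 3.93 to 6.12 CPM in muscle, 40.9 to 239.9 CPM in lung and 11.3 to 18.3 CPM in MEF. Most of the cardiac sum in lung was Actc1. Of 5 Schwann cell markers tested, 2 were higher and 1 lower in muscle than in lung (median 1.38). Of 9 skeletal muscle markers tested, 2 were higher and 2 lower (median -0.51). The blood cell marker Cd52 had no read in muscle, and every mesothelial marker had reads in all 3 groups. The part of these cells in the values of the contractile genes was not tested.

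Levels were also set per kilobase of exon, with the length of all exons of a gene in GENCODE M21 merged over its transcripts. The transcripts these cells use may be shorter, so this scale does not settle the order of genes at near levels. Acta2 and Tagln led in MEFs with means of 1138 ± 290.1 and 863 ± 138 CPM per kb (SD, n = 4). They were followed by Myl9 at 193 ± 51.4, Actg2 at 71.8 ± 26.2 and Cnn1 at 28.6 ± 10.4. Within each MEF library the Tagln level per kilobase was 69.1% to 87.1% of that of Acta2, so Acta2 was the higher in all 4 on this scale. In lung the means were 203 ± 135 for Acta2, 159 ± 73.9 for Myl9 and 152 ± 117 for Tagln (SD, n = 5), then 29.1 ± 21.4 for Myh11. In muscle Myl9 led at 36.3 ± 1.18 CPM per kb (SD, n = 4), above Cspg4 at 4.55 ± 0.28, Tagln at 3.27 ± 0.61 and Acta2 at 2.42 ± 0.41. Muscle FAPs thus held the light chain at a higher level per length than any other of the 10 genes, in all 4 libraries.

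Over the lung libraries, the contractile genes and the mural markers could be set apart by their spread. The SD of log2 CPM over the 5 lung libraries ran from 0.65 (Myl9) to 1.22 (Lmod1) in the contractile genes, with Acta2 at 0.99, Tagln at 1.10, Cnn1 at 1.13, Actg2 at 1.16 and Myh11 at 1.21. It was 1.32 for Cspg4, 1.58 for Rgs5 and 2.40 for Higd1b, so that every mural marker varied more than every contractile gene. Over the 12967 genes tested with a lung mean of at least 1 CPM, the median SD was 0.26. The separation rested on lung FAP 2: without it the contractile range was 0.49 to 1.15 and the mural values were 0.59 for Higd1b, 0.98 for Cspg4 and 1.25 for Rgs5, which overlap it. Reads per lung library ran from 13 to 191 for Rgs5 and from 24 to 1565 for Higd1b, so part of these values rests on low counts. Further mural genes differed in spread: Cox4i2 ran from 3.84 to 78.5 CPM over the lung libraries and Abcc9 from 251 to 281 CPM.

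The order of the lung libraries was the same in all 7 contractile genes: lung FAP 2, then 5, 1, 3 and 4. In the lowest library, lung FAP 4, these genes stood at 12.1% (Lmod1) to 32.8% (Myl9) of their level in lung FAP 2. Cspg4 had the same order, while Rgs5 had the order 2, 5, 4, 3, 1 and Higd1b the order 2, 5, 3, 1, 4. The level in lung FAP 2 was 2.23 to 3.63 times the median of the other 4 libraries in the contractile genes, 4.53 times in Cspg4, 7.25 times in Rgs5 and 45.6 times in Higd1b. In lung FAP 5, the second highest, the contractile genes kept 45.6% to 85.3% of the level in lung FAP 2, and Higd1b kept 4.72%.

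**Figure D3:**
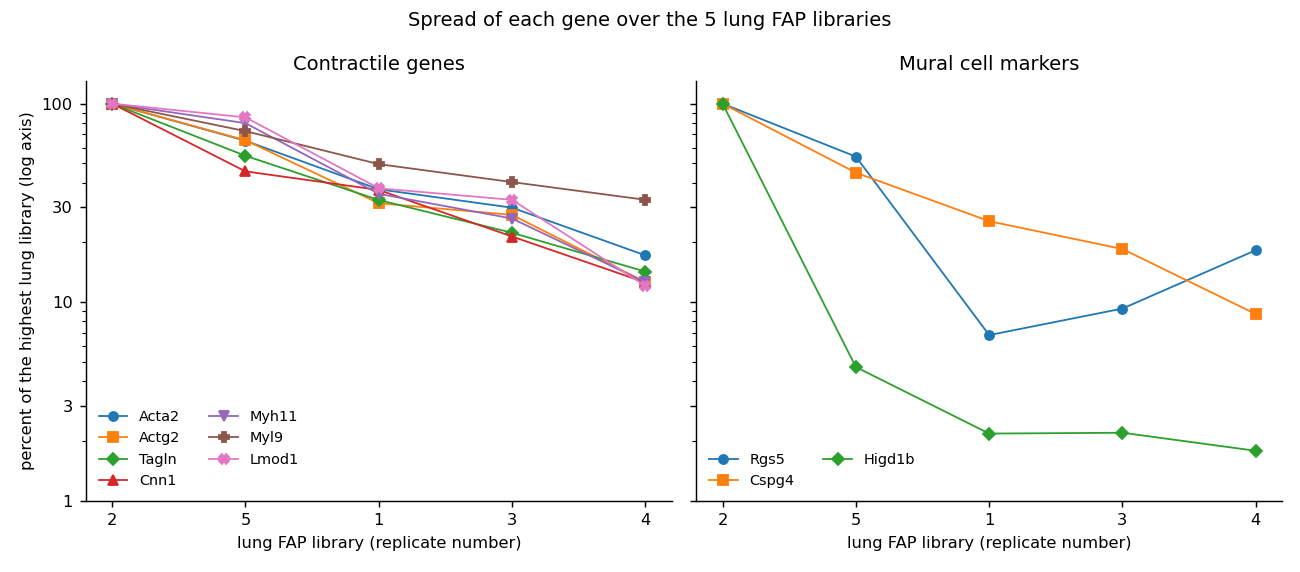
Each gene's CPM in the 5 lung FAP libraries as a percent of its highest lung library (log axis), with contractile genes on the left, mural cell markers on the right and libraries ordered 2, 5, 1, 3, 4. The contractile genes fall together to 12.1% to 32.8% in lung FAP 4, while Higd1b falls at once to 4.72% in lung FAP 5.

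Within the contractile set the proportions of the genes differed between groups, which was seen by expressing each gene's counts as a percent of the Acta2 counts of the same library. This measure was chosen after the values had been seen, and all 18 tests share the Acta2 counts. Their p-values are thus descriptive and add no support of their own. Myh11 amounted to 35.7% to 59.7% of the Acta2 counts in lung and 0.641% to 1.17% in MEF, a log2 difference of 5.63 (SE 0.23, exact two-sided permutation test, p = 0.0159, adjusted p = 0.0286 over 18 tests). Lung already lay above MEF in Myh11 and below it in Acta2 without overlap, so this p could only be the smallest the design allows. In muscle Myh11 was 69.1% to 99.3%. Myl9 amounted to 8.79% to 9.12% in MEF, 35.0% to 66.8% in lung and 636% to 1024% in muscle, with no overlap between groups.

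Lmod1 was 4.74% to 8.86% of the Acta2 counts in lung and 0.889% to 1.06% in MEF (log2 difference 2.83, SE 0.16, exact permutation p = 0.0159, adjusted p = 0.0286). Cnn1 was 7.16% to 10.2% in lung and 2.54% to 3.46% in MEF (log2 difference 1.45, SE 0.16, exact permutation p = 0.0159, adjusted p = 0.0286). Only 1 of the 18 tests did not pass, that of Tagln between lung and MEF, at 56.3% to 75.3% and 62.5% to 78.9% (log2 difference -0.11, SE 0.10, exact permutation p = 0.286). In muscle Tagln lay above both, at 99.5% to 159% of the Acta2 counts. The other 17 of the 18 tests had adjusted p-values of 0.0286 to 0.0336 (exact permutation). The smallest p these designs allow is 0.0159 for 5 libraries against 4 and 0.0286 for 4 against 4. The muscle percentages of Actg2, Cnn1 and Lmod1 rest on 14, 36 and 26 reads over all 4 libraries.

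**Figure D4:**
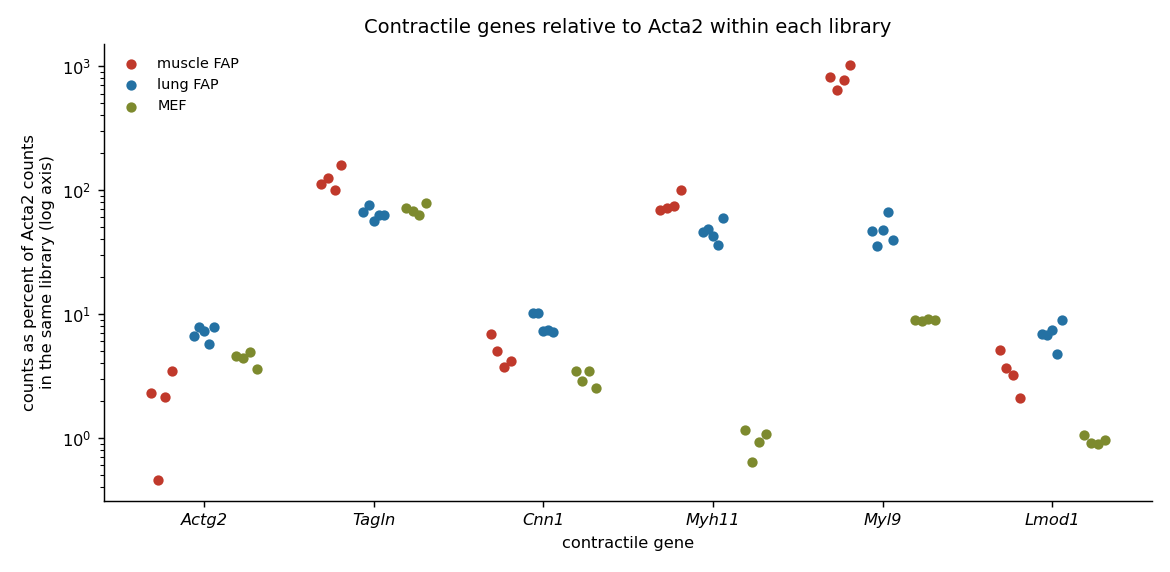
Counts of 6 contractile genes as a percent of the Acta2 counts in the same library (log axis), 1 point per library, with muscle FAP in red, lung FAP in blue and MEF in green. Myh11 lies at 0.641% to 1.17% in MEF and at 35.7% to 59.7% in lung, while Tagln lies at like percentages in both.

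Of 30 further contractile and cytoskeletal genes of smooth muscle, 21 were lower in muscle than in lung and 9 were not called, with a median log2 fold change of -1.07 against -0.04 over all genes, of which 25.0% were called lower. None was called higher by edgeR, against 1 at an unadjusted p under 0.05, 1 by DESeq2 and 2 by limma-voom. Without lung FAP 2 the split was 2 higher and 21 lower. Kcnmb1, the beta subunit of the calcium-activated potassium channel of smooth muscle, changed most, from 5.37 ± 4.85 CPM in lung (SD, n = 5) to 0.0657 ± 0.0358 CPM in muscle (SD, n = 4), a log2 fold change of -6.28. Ppp1r14a, an inhibitor of myosin phosphatase, had -3.59 and Csrp1, a LIM-domain protein of smooth muscle, had -3.36.

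Against MEF, 19 of the same 30 genes were lower in muscle and 7 higher (median -1.10), where 37.3% and 36.1% of all genes were called lower and higher. The largest changes were in genes of the actin cytoskeleton that fibroblasts also use: the tropomyosins Tpm2 (10.1 ± 2.32 CPM in muscle, 413 ± 119 in MEF; SD, n = 4 each) and Tpm1 (55.3 ± 7.39 and 1987 ± 233), and the alpha-actinin Actn1 (30.6 ± 7.23 and 1140 ± 26.9). Between lung and MEF 14 of the 30 genes were higher and 12 lower in lung (median -0.10), where 37.8% and 36.6% of all genes were called higher and lower. Mustn1 (log2 fold change 5.76), Ppp1r14a (5.28) and Mylk, the kinase of the myosin light chain (4.55), were higher in lung like Myh11, while Tpm2 (-2.03), Tpm1 (-3.03) and Actn1 (-3.93) were lower like Acta2. Mylk, which phosphorylates Myl9, stood at 212 ± 110 CPM in lung (SD, n = 5), 25.6 ± 4.62 in muscle and 9.06 ± 1.71 in MEF (SD, n = 4 each).

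Among 25 regulators of smooth muscle genes, 11 were lower and 7 higher in muscle than in lung (median -0.17), where 25.0% and 23.2% of all genes were called lower and higher. Myocd, which encodes myocardin, the cofactor of serum response factor in smooth and cardiac muscle, had no read in any of the 4 muscle libraries. It stood at 2.21, 9.10, 1.49, 0.299 and 5.66 CPM in lung libraries 1 to 5 and at 1.21, 1.64, 2.86 and 0.758 CPM in MEF libraries 1 to 4. Its order over the lung libraries was that of the contractile genes. Taking 3 reads over the 4 muscle libraries as the floor, Myocd was at least 175-fold lower in muscle than in pooled lung reads (edgeR adjusted p = 2.9e-04). Against pooled MEF reads it was at least 72.7-fold lower (adjusted p = 4.0e-04). These bounds leave out the variation between the lung or MEF libraries, which in lung ran from 0.299 to 9.10 CPM. The library lung FAP 2 held 319 of the 643 lung reads, and without it the bound against lung was 112-fold.

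Srf, which encodes serum response factor itself, differed far less, at 57.3 ± 2.42 CPM in muscle and 54.8 ± 5.13 in MEF (SD, n = 4 each) and 91.6 ± 13.8 in lung (SD, n = 5). It was lower in muscle than in lung by a log2 fold change of -0.68 (edgeR adjusted p = 1.4e-04), and muscle against MEF gave 0.06 (adjusted p = 0.626). Of the called regulators with at least 5 CPM in their higher group, which leaves out Myocd, Gata5 (-6.79, or -7.46 without muscle FAP 3), Foxf1 (-3.87) and Notch3 (-2.85) changed most between muscle and lung, all lower in muscle. Foxf1 encodes a forkhead factor of lung mesenchyme and Notch3 the Notch receptor of mural cells. Notch3 ran from 7.81 CPM in lung FAP 4 to 206 CPM in lung FAP 2. Its level in lung FAP 4 was below that of every muscle library (8.88 to 18.2 CPM). Against MEF, 9 of the 25 regulators were higher and 7 lower in muscle, where 36.1% and 37.3% of all genes were, and 14 were higher and 7 lower in lung, where 37.8% and 36.6% of all genes were. The limb and neural factor Zic1 was lower than in MEF in muscle (-7.09, or -8.12 without muscle FAP 4) and in lung (-6.35), Ebf1 was higher in muscle (3.46), Gata5 was higher in lung (7.39), and the Notch target Heyl was higher in muscle (4.37) and in lung (6.91).

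Of 23 further pericyte and mural genes tested, 14 were lower and 1, Steap4, was higher in muscle than in lung (median -3.28), where 25.0% and 23.2% of all genes were called lower and higher. By limma-voom 2 were higher and 14 lower. Without lung FAP 2 the split was 3 higher and 14 lower (median -2.38). Trpc6 (-6.19), a cation channel, Esam (-5.91), an adhesion molecule that endothelium shares, and Mcam (-5.90), the CD146 antigen, changed most. The values of Trpc6 and Mcam were -4.34 and -4.80 without lung FAP 2, and without muscle FAP 5 that of Trpc6 was -6.84. Mcam stood at 33.1, 225, 23.7, 21.7 and 56.6 CPM in lung libraries 1 to 5, 0.699 to 1.83 CPM in muscle and 128 to 165 CPM in MEF. Pdgfrb, the receptor that pericytes need for their recruitment, averaged 241 ± 22.7 CPM in muscle, 255 ± 91.5 in lung and 277 ± 23.1 in MEF (SD, n = 4, 5 and 4), and none of its comparisons passed the edgeR test (adjusted p = 0.791, 0.442 and 0.626).

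In lung against MEF, 19 of these 23 genes were higher, where 37.8% of all genes were called higher and 36.6% lower, and none was lower by edgeR, also at an unadjusted p under 0.05 and by DESeq2, against 2 by limma-voom (median 3.64 against 0.02 over all genes). Without lung FAP 2 the split was 17 higher and 2 lower. The leading ones were Steap4 (log2 fold change 8.81), Abcc9 (8.01) and Cox4i2 (7.01, or 5.35 without lung FAP 2). Cox4i2 had 78.5 CPM in lung FAP 2 and 3.84 to 11.3 CPM in the other lung libraries, close to the pattern of Higd1b. Abcc9 and Kcnj8, the subunits of an ATP-sensitive potassium channel that pericytes carry, were instead level, at 251 to 281 CPM and 63.0 to 77.0 CPM over all 5 lung libraries. Muscle against MEF gave 10 higher and 4 lower of the 23 (median 0.90), where 36.1% and 37.3% of all genes were called higher and lower, led by Steap4 (10.72), Art3 (7.13) and Mcam (-6.93).

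The relatives of the 10 genes did not all move with them. Of 19 paralogs tested, 9 were lower in muscle than in lung, where 25.0% of all genes were called lower and 23.2% higher (median -0.78). None was higher by edgeR, also at an unadjusted p under 0.05 and by DESeq2 and limma-voom. Actc1, the cardiac actin, was at most 0.115 CPM in muscle, 67.2, 222, 54.6, 31.2 and 106 CPM in lung libraries 1 to 5 and 2.70 to 6.01 CPM in MEF, with the lung order of the contractile genes. The level of Myh6, the heavy chain of cardiac myosin, was at most 1.83 CPM in lung. Cnn2, the calponin of nonmuscle cells, was lower in muscle, with log2 fold changes of -2.93 against lung and -4.66 against MEF, and so were the nonmuscle myosins Myh10 (-1.36 against lung) and Myh9 (-3.49 against MEF). Acta1, the skeletal muscle actin, had 21.2 ± 2.94 CPM in MEF (SD, n = 4), above muscle (log2 fold change of muscle over MEF -2.56) and lung (-2.67). The log2 fold change of Myh14 in lung against MEF, 4.12 (adjusted p = 0.0404), came from 1 library: lung FAP 3 had 29.5 CPM, the other 4 had 0 to 0.430 CPM and the MEF libraries 0.170 to 0.659 CPM. Without lung FAP 3 the value turned to -0.46 (adjusted p = 0.539), and leaving out any 1 MEF library also ended the call (adjusted p = 0.0643 to 0.0968). Higd1a, the paralog of Higd1b, was even, at 32.3 ± 1.66 CPM in muscle and 29.8 ± 2.89 in lung (log2 fold change 0.12, adjusted p = 0.405).

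The endothelial sum was highest in the lung library where the mural and contractile sums were highest, but did not follow either over the rest. Of 10 endothelial markers, 9 were called lower in muscle than in lung, where 25.0% of all genes were called lower and 23.2% higher. The sum of the 10 markers ranged from 7.31 to 16.1 CPM in muscle, 43.8 to 773 CPM in lung and 217 to 259 CPM in MEF. In lung against MEF, 7 were higher and 2 lower (median log2 fold change 2.83), where 37.8% and 36.6% of all genes were called higher and lower. The MEF sum was mostly Kdr, at 172 CPM on average, and Flt1, at 49.4 CPM. Pecam1 was 0.410 to 0.743 CPM in MEF. In lung it had 131 CPM in lung FAP 2, 41.2 in lung FAP 4 and 4.44 to 12.2 in the other 3. The library lung FAP 4 thus had the second highest endothelial sum (241 CPM). Its contractile sum (436 CPM) and its mural sum (5.65 CPM) were the lowest of the lung libraries. No endothelial marker averaged 0 in any group, and Cldn5 was lowest in muscle at 0.0147 CPM. The part of endothelial or mural cells in the lung values was not tested.

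**Figure D5:**
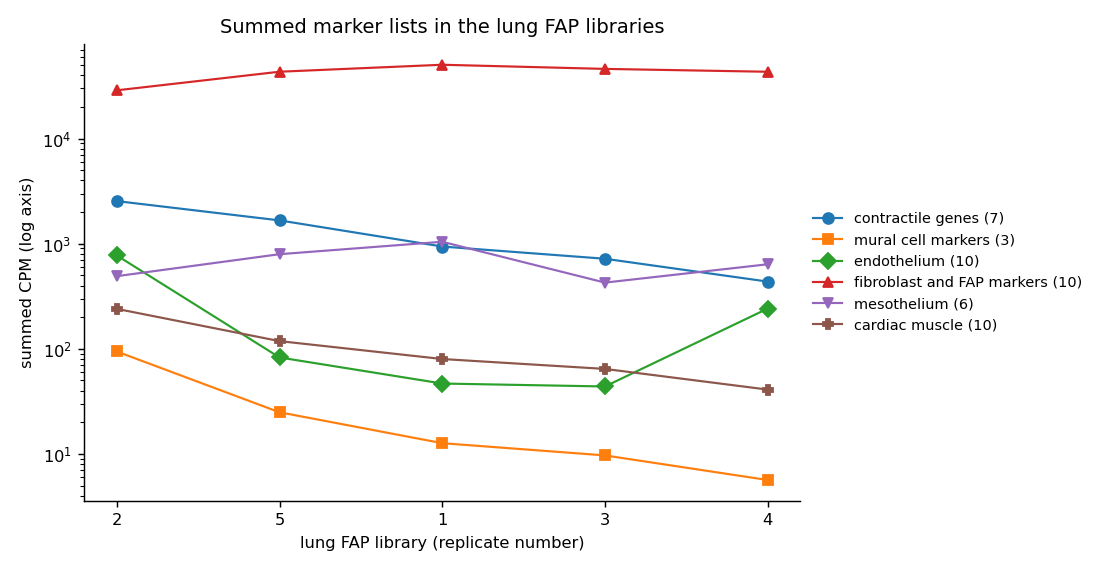
Summed CPM (log axis) of marker lists in the 5 lung FAP libraries, ordered 2, 5, 1, 3, 4. The contractile sum falls from 2541 to 436 CPM along this order, the endothelial sum is 773 CPM in lung FAP 2 and 241 CPM in lung FAP 4, and the fibroblast sum is lowest in lung FAP 2 at 28750 CPM.

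The genes whose log2 CPM ran most like each of the 10 over all 13 libraries were sought among 11598 genes. Pearson's r is a description here, since the libraries of a group share their cell type. Differences between the 3 groups and variation within them both enter each r, and their shares were not computed. Acta2 was most like Cnn2 (r = 0.990), Tpm2 (0.990) and Speg (0.987), and Tagln most like Tpm2 (0.995), Palm2 and Cnn2. Myh11 was most like Myom1 (0.984), Kcnk3 and Kcnh2, which like it were highest in lung, at 22.1, 11.6 and 6.28 CPM on average. Myl9 was most like Pcp4l1 (0.986), Foxf2 and Mcam, Lmod1 most like Fblim1 (0.990), Tns3 and Scube3, Cnn1 most like Jph2 (0.992), Arhgef5 and Trp53i11, and Actg2 most like Trp53i11 (0.989), Jph2 and Rasgrp3.

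The mural markers had other neighbours. Higd1b was most like Pde5a (0.977), Gucy1b3 (0.962) and Gucy1a3 (0.952), which encode the phosphodiesterase that breaks down cyclic GMP and both subunits of the guanylate cyclase that makes it. These averaged 104, 93.2 and 107 CPM in lung and 20.1, 8.83 and 2.71 CPM in muscle. Cspg4 was most like 1700017B05Rik (0.963), Tenm4 and Wdr7, and Rgs5 had the weakest likeness of the 10, with Eif5a2 (0.907), Edil3 and Gucy1a2.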

How the data were processed

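The authors' deposited table holds raw counts per gene for 13 libraries. Per the submitters' processing notes, Bowtie2 (2.1.0.0), HTSeq, edgeR and the mm10 build were used, while the annotation, the strand setting and the treatment of multiply matching reads are not stated. From the deposited counts, 15412 of 23418 genes passed filterByExpr and were fitted in 1 model with group as the only term (edgeR 4.0.16 on R 4.3.3, TMM scaling, robust quasi-likelihood test, Benjamini-Hochberg adjustment, call at adjusted p under 0.05). The SE of a log2 fold change comes from the log2 CPM of the libraries with a prior count of 2, and is not the error of the edgeR fit. The 10 genes and all lists were chosen with earlier results of these data known. From each further list and comparison, the 3 called genes that changed most are named, provided that their higher group averages 5 CPM or more, with Myocd and Srf added. Gene positions and exon lengths come from GENCODE M21, and promoter windows from RefSeq (GRCm38.p6). Exact permutation tests were two-sided. Alternatives were other scalings and filters, DESeq2 1.42.0, limma-voom (limma 3.58.1), a test against a 2-fold change, fits of 2 groups alone, the replicate numbers as a block and leaving out libraries. The fitting code was tested on simulated data. At the lowest depth, 1 read is a small fraction of 1 CPM, and counting intervals cover counting error only.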

Additional observations from a re-analysis of the deposited data

Results flagged for a closer look

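Among the 30 combinations of gene and group, 1 library lay far from the rest of its group: Higd1b in lung FAP 2, at 44.7 CPM against 0.798 to 2.11 CPM in the other 4 lung libraries, by Dixon's criterion at the 95% level. Chance alone sets apart about 1 in 20 groups. The same library had the highest level of the other 9 genes in lung and 773 CPM of endothelial markers, and the part of these in the Higd1b value was not tested.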

How the results depend on the processing

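The calls of the 10 genes were recomputed under scaling, filter, tool and library alternatives, 569 gene values in all, of which 547 stayed on the same side of the threshold, 17 became called and 5 lost their call, and no called direction turned. The number of the 10 genes called was 8 or 9 in muscle against lung, 7 to 9 in muscle against MEF and 5 to 9 in lung against MEF. Leaving out 1 library at a time gave 9 calls throughout in muscle against lung, 7 throughout in muscle against MEF and 6 to 9 in lung against MEF. Over all genes, leaving out 1 library gave 6355 to 7355, 10707 to 11062 and 10976 to 11417 calls in the 3 comparisons. A test against a 2-fold change called 1934 genes instead of 7424 in muscle against lung, 5892 instead of 11326 in muscle against MEF and 5944 instead of 11464 in lung against MEF, since it asks for a larger change. With library size as the only scaling, the median of all genes moved by -0.41, -0.58 and -0.17 on the log2 scale, and the split of higher and lower calls changed from 3574 and 3850 to 1730 and 7455 in muscle against lung, and from 5570 and 5756 to 3757 and 8089 in muscle against MEF. All 7 contractile genes stayed lower in muscle under each of these settings that tested them. The median spread over the lung libraries was lower in the contractile genes than in the mural markers by a difference of -0.45, which ran from -0.93 to -0.15 when 1 lung library was left out. The labels do not say that equal replicate numbers mark a shared animal or day, and libraries of the same number did not deviate together (r from -0.05 to 0.06). With the numbers as a replicate block, 8, 9 and 7 of the 10 genes were called, and over all genes 6213, 11220 and 10180. In that fit Cspg4 lost its call in muscle against lung (adjusted p = 0.0576), Rgs5 and Cspg4 were called in muscle against MEF (0.0324 and 1.2e-06) and Cnn1 in lung against MEF (0.0387), and the value of Myh11 in lung against MEF moved from 3.25 to 2.60. DESeq2 gave no adjusted p for Higd1b in any of the 3 comparisons, so its counts leave that gene out. Among the genes named from the further lists, leaving out 1 library turned the direction of 1 called value, that of Myh14 in lung against MEF (-0.46 without lung FAP 3, and up to 4.61 without another library). The ratios to Acta2 kept their direction in all recomputations without 1 library. The recomputations of the ratios, of the further lists and of the Myocd bound were chosen after seeing the data. Low counts limit Higd1b outside lung and Actg2, Cnn1 and Lmod1 in muscle.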
